A study of Mus musculus with 2 samples.

Results

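Mediator is the large protein complex that carries signals from DNA-bound transcription factors to RNA polymerase II. Its subunit genes were taken by symbol: Med followed by a number, with or without a final l, together with Cdk8, Cdk19 and Ccnc. This rule found 33 of the 43346 mouse genes in the tables. The study measured polyadenylated RNA in paired ends from G1E-ER4 cells kept for 3 h in 10 nM 17beta-estradiol, in 1 group of 2 libraries that the labels number as biological replicates 1 and 2. G1E-ER4 is an immortalised erythroid progenitor line from a male mouse. It descends from G1E, a line whose own Gata1 gene was knocked out, and carries GATA1 joined to the part of the estrogen receptor that binds hormone, so estradiol activates it. Both libraries share the knockout, the fusion and the treatment. The labels give them a single cell sample record, so their spread may be only technical, and no untreated library was analysed here. The values below are therefore levels after estradiol, not responses to it.

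The complex is built from a head, a middle and a tail that are held together by the backbone subunit MED14. The head and middle contact the polymerase, the tail and MED1 receive most transcription factors, and a detachable kinase module of CDK8 or CDK19, cyclin C, MED12 and MED13 blocks or tunes the contact with the polymerase. In erythroid cells GATA1 is known to bind MED1, and nuclear receptors such as the estrogen receptor bind it through short leucine-rich motifs.

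Replicate 1 held 31126956 and replicate 2 held 57853617 expected counts, the authors' estimated numbers of fragments per gene. A floor of 3 counts is a share of 9.64e-06% in replicate 1 and 5.19e-06% in replicate 2. TPM is a measure of transcript abundance that corrects for transcript length and for sequencing depth. The erythroid label fitted the markers, since 9 of 9 erythroid markers and 0 of 12 markers of other cell types reached 1 TPM in both libraries. Among those 12, the platelet factor gene Pf4 was highest with a mean of 0.87 TPM. The libraries differed in erythroid genes, in both directions. The log2 ratio of replicate 1 over replicate 2 in scaled counts was -5.59 for Hba-a1 and -3.70 for Hbb-bs, both adult globin genes, -2.41 for Gata1 and -1.34 for Gfi1b, lay between -0.54 and -0.25 for Epor, Ank1 and Sptb, and was 0.86 for Tal1, 0.82 for Klf1 and 0.67 for Nfe2. The part of this difference in the Mediator values was not tested.

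Much of what follows turns on which transcript of a gene received the fragments, so the sequences that separate those transcripts are given first. They come from GENCODE M21 on GRCm38, whose transcript lengths equal those in the deposited tables for the transcripts shown. For the Cdk8 transcripts shown, the deposited version differs from that of M21, so only their length is known to match. For the cyclin-dependent kinase gene Cdk8, the coding transcript Cdk8-201 holds an exon of 58 bases (chr5:146283629-146283686, plus strand) that the transcript Cdk8-207 skips. The length of the exon leaves a remainder of 1 when divided by 3, so its loss shifts the reading frame, and M21 classes Cdk8-207 as a target of nonsense-mediated decay, the pathway that degrades RNAs with an early stop codon. Capitals mark the exon in the first line and the bases on either side of the new junction in the second.
Cdk8-201: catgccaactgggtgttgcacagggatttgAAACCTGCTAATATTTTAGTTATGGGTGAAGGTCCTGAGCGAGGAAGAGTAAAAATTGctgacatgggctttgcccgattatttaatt
Cdk8-207: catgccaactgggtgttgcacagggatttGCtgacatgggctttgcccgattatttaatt

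The tail gene Med24 and the gene Med27 each have a short transcript that M21 classes as a processed transcript, one without an open reading frame. Part of each lies outside every exon of the gene's coding transcripts, and capitals mark that part, which is 146 bases long in both (chr11:98718665-98718810, minus strand, for Med24-209 and chr2:29504871-29505016, plus strand, for Med27-204). They are shown because fragments given to them decided the level of the gene in 1 library each.
Med24-209: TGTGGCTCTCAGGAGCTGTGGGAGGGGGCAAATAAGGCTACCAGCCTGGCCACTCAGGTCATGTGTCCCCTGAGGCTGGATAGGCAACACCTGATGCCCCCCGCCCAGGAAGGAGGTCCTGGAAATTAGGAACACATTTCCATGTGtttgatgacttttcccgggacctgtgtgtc
Med27-204: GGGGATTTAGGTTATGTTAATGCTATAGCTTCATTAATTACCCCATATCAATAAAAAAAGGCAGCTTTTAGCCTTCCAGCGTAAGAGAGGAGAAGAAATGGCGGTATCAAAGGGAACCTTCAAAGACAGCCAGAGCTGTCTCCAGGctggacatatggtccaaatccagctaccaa

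RNA of nearly every subunit was detected in these cells. Of the 33 subunit genes, 30 reached 1 TPM in both libraries, against 20.2% of all genes and 38.6% of protein-coding genes. The other 3 were the cyclin gene Ccnc, the middle gene Med31 and the kinase module paralog Med12l. A level of 10 TPM in both libraries was reached by 17 members, and a mean of 100 TPM by 4. The median member stood at 21.0 TPM, with a median of 19.0 TPM in replicate 1 and 25.1 TPM in replicate 2. When only transcripts that M21 classes as protein-coding were summed, here called coding TPM, the median was 13.6 TPM, 30 members again reached 1 TPM in both libraries, and 14 reached 10 TPM. Coding TPM depends on how fragments were divided among transcripts, and the accuracy of this division was not tested. For Hbb-bs it was 61.8 of 863.1 TPM in replicate 1 and 7.91 of 9483.8 TPM in replicate 2. For Hba-a1 it was 34.5 of 148.8 TPM and 69.0 of 6605.7 TPM. It equalled gene TPM in both libraries for Epor, Sptb, Gfi1b and Klf1.

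**Figure D1:**
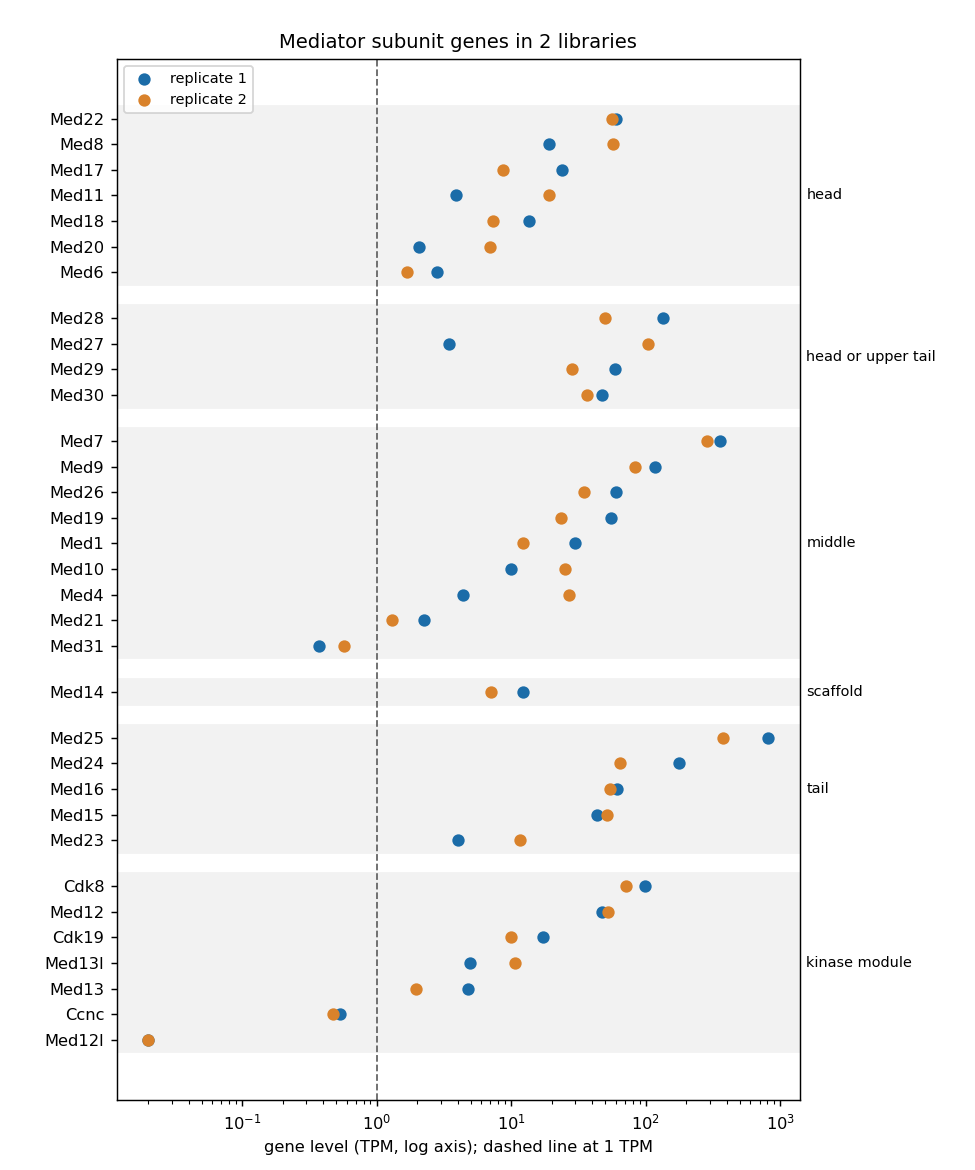
Level of each Mediator subunit gene in TPM on a log axis, with replicate 1 in blue and replicate 2 in orange, grouped by module and sorted by mean. Med25 is highest at 816 and 374.7 TPM in replicates 1 and 2, and Ccnc, Med31 and Med12l lie below the dashed line at 1 TPM.

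The tail, which receives activators, was the module with the highest median, 57.5 TPM, with 61.0 TPM in replicate 1 and 54.0 TPM in replicate 2. On coding TPM its median was 43.3 in replicate 1 and 51.1 in replicate 2. The group of Med27, Med28, Med29 and Med30 had 53.3 and 32.5 on that scale, and so was above the tail in replicate 1 only. Med25, which in human cells binds the viral activator VP16 and the retinoic acid receptor, had 816 TPM in replicate 1, against 374.7 TPM in replicate 2, with a mean of 595 ± 312 TPM (SD, n = 2). It ranked 179th in replicate 1 and 352nd in replicate 2 among all genes and alone made up 35.7% and 23.8% of the TPM of all members. Med25 (chromosome 7, 44876765 to 44892712, minus strand) has 1 transcript in the tables, so this level does not depend on how fragments were divided among transcripts, and it rested on 43738 and 42129 expected counts. Med25 led the members in both libraries.

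Med16 had 61.0 TPM in replicate 1 and 54.0 TPM in replicate 2. Med15, whose product is bound by the sterol regulator SREBP, had 43.3 TPM in replicate 1 and 51.1 TPM in replicate 2. Both were near each other and close between the libraries, and nearly all of their TPM lay on coding transcripts. Med23, a target of the transcription factor ELK1, was the lowest tail gene at 4.01 TPM in replicate 1, against 11.6 TPM in replicate 2. In replicate 2, 5.17 TPM of this came from the retained-intron transcript Med23-210, which was listed at 0 in replicate 1, and coding TPM was 3.94 in replicate 1 and 6.34 in replicate 2.

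Med24, which sits beside MED23 and MED16 in the tail, had 175.1 TPM in replicate 1 and 63.9 TPM in replicate 2. The order of the libraries depends on the transcripts. Its short transcript Med24-209, of 453 bases, took 120.2 TPM and 944 expected counts in replicate 1 and was listed at 0 in replicate 2. The main coding transcript Med24-201 had 24.3 TPM in replicate 1 and 43.7 TPM in replicate 2. Coding TPM of the gene was 25.3 in replicate 1 and 45.7 in replicate 2, and its expected counts were 3845 in replicate 1 and 10127 in replicate 2. On the gene level Med24 was thus the third member of the complex by mean TPM and on coding TPM the 12th.

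The head is the module next to the polymerase, and its 7 members ran from low to moderate levels, with a median of 11.4 TPM (13.6 in replicate 1 and 8.71 in replicate 2). Med22, the partner of MED11 in a dimer, was highest by mean, with 60.3 TPM in replicate 1 and 56.2 TPM in replicate 2, where Med8 was slightly higher. Med11 itself had 3.88 TPM in replicate 1 and 19.0 TPM in replicate 2. The 2 partners of this dimer were therefore far apart in level in both libraries. Med17, the central subunit of the head, had 23.9 TPM in replicate 1 and 8.71 TPM in replicate 2 from a single transcript. Med8, which anchors the MED18 and MED20 pair, had 19.0 TPM in replicate 1 and 56.8 TPM in replicate 2.

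Med18 had 13.6 TPM in replicate 1 and 7.26 TPM in replicate 2, and its partner Med20 had 2.08 TPM in replicate 1 and 7.01 TPM in replicate 2. They were close in replicate 2 but not in replicate 1. Med6, which joins head and middle, was the lowest head gene by mean, with 2.82 TPM in replicate 1, where Med20 was lower, and 1.69 TPM in replicate 2.

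MED27, MED28, MED29 and MED30 lie between head and tail, and their genes had a median of 48.8 TPM (53.3 in replicate 1 and 43.3 in replicate 2). Med28 had 133.6 TPM in replicate 1 and 49.9 TPM in replicate 2, Med29 had 59.2 TPM in replicate 1 and 28.4 TPM in replicate 2, and Med30 had 47.5 TPM in replicate 1 and 36.7 TPM in replicate 2. All 3 were higher in replicate 1 on this scale. Med27 had 3.47 TPM in replicate 1 and 104.3 TPM in replicate 2. The short transcript Med27-204 had 0.43 TPM in replicate 1 and 100.6 TPM in replicate 2. The coding transcript Med27-201 had 2.71 TPM in replicate 1 and 3.53 TPM in replicate 2, which are close, so that the difference of the gene lay in the short transcript.

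The middle module had a median of 21.0 TPM, with 29.8 TPM in replicate 1 and 25.1 TPM in replicate 2. Med7, which forms the hinge of the middle with MED21, was its highest member at 354.6 TPM in replicate 1, against 283.9 TPM in replicate 2, with a mean of 319 ± 49.98 TPM (SD, n = 2). Most of that level, 259.9 TPM in replicate 1 and 196.9 TPM in replicate 2, was given to the processed transcript Med7-208, and coding TPM was 94.7 in replicate 1 and 87.0 in replicate 2. Its hinge partner Med21 had 2.26 TPM in replicate 1 and 1.29 TPM in replicate 2. Med31, which attaches to MED7, had 0.37 TPM in replicate 1 and 0.57 TPM in replicate 2, from 9 and 30 expected counts. These neighbours in the protein complex thus had genes at opposite ends of the list.

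Med9 had 117.2 TPM in replicate 1 and 83.8 TPM in replicate 2, all from 1 transcript, and its neighbour Med4 had 4.35 TPM in replicate 1 and 26.7 TPM in replicate 2. Med10 had 10.0 TPM in replicate 1 and 25.1 TPM in replicate 2. Med19 had 55.5 TPM in replicate 1 and 23.3 TPM in replicate 2. Med26, which recruits elongation factors to the form of the complex without the kinase module, had 60.3 TPM in replicate 1 and 34.9 TPM in replicate 2. All of the TPM of Med4, Med9, Med10, Med19 and Med26 lay on coding transcripts.

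Med1 (chromosome 11, 98152154 to 98193293, minus strand), the subunit that GATA1 and nuclear receptors bind, had 29.8 TPM in replicate 1, against 12.3 TPM in replicate 2, with a mean of 21.0 ± 12.4 TPM (SD, n = 2), the median of all members. Its full-length coding transcript Med1-203, of 8024 bases, had 2.37 TPM in replicate 1 and 4.60 TPM in replicate 2. Most of the level lay on 2 processed transcripts. Med1-205 had 18.1 TPM in replicate 1 and 2.69 TPM in replicate 2, and Med1-207 had 8.41 TPM in replicate 1 and 4.78 TPM in replicate 2. Coding TPM of Med1 was 3.28 in replicate 1 and 4.80 in replicate 2, so gene TPM and coding TPM put the libraries in opposite order.

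The backbone gene Med14 (chromosome X, 12675369 to 12762073, minus strand) had 12.3 TPM in replicate 1 and 7.11 TPM in replicate 2. In replicate 1, 9.79 TPM lay on the retained-intron transcript Med14-204, which had 0.42 TPM in replicate 2. Coding TPM was 2.51 in replicate 1 and 6.69 in replicate 2. Again the order of the libraries was reversed between these scales, and the backbone was below the median member on both.

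The kinase module had the lowest median of mean TPM, 7.84. Its median was lowest in replicate 1, at 4.92 TPM, but not in replicate 2, where it was 9.98 TPM and the head and the backbone gene were lower. Its members ran from 0.02 to 84.7 TPM. Cdk8 had 97.9 TPM in replicate 1, against 71.5 TPM in replicate 2, with a mean of 84.7 ± 18.6 TPM (SD, n = 2), and was 6th of the members by mean. Of this, 95.8 TPM in replicate 1 and 70.3 TPM in replicate 2 was given to Cdk8-207, the transcript shown above without the exon of 58 bases, which is 97.9% and 98.3% of the gene. Cdk8-201 had 1.86 TPM in replicate 1 and 0.47 TPM in replicate 2. In M21 each of the pair has 2973 bases and they share 2915 of them. There Cdk8-201 alone holds the exon of 58 bases, and Cdk8-207 alone starts 58 bases further upstream. The division therefore rests on the fragments that cover those parts or the junction, its accuracy was not tested, and the coding TPM of Cdk8 depends on it.

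Cdk19, the paralog that can take the place of CDK8, had 17.3 TPM in replicate 1 and 9.98 TPM in replicate 2, all on coding transcripts. The log2 ratio of Cdk8 to Cdk19, with a pseudocount of 1 TPM, was 2.44 in replicate 1 and 2.72 in replicate 2, a mean of 2.58 ± 0.20 (SD, n = 2). On coding TPM it was -2.66 in replicate 1 and -2.43 in replicate 2, a mean of -2.54 ± 0.16. The authors' credibility bounds for gene TPM, whose level is not given in the sources used here, were 93.5 to 98.3 for Cdk8 and 16.1 to 17.5 for Cdk19 in replicate 1, and 69.3 to 72.2 and 9.47 to 10.2 in replicate 2. Both libraries therefore put Cdk8 above Cdk19 by gene and below it by coding transcripts, the second subject to that division. With 2 libraries of 1 group, no exact permutation test of such a ratio can pass 0.05, and none was made.

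Med12, whose product activates the kinase through cyclin C, had 47.3 TPM in replicate 1 and 52.6 TPM in replicate 2. Its paralog Med12l was listed at 0.02 TPM in both, from 6 expected counts in replicate 1 and 10 in replicate 2, and was the lowest member. The log2 ratio of Med12 to Med12l was 5.64 ± 0.11 (SD, n = 2) on gene TPM and 3.02 ± 0.17 on coding TPM, and at this low level of Med12l its size follows the pseudocount. Most of the gene level of Med12, 37.0 TPM in replicate 1 and 29.1 TPM in replicate 2, lay on the processed transcript Med12-206 of 448 bases. The coding transcript Med12-204 had 7.96 TPM in replicate 1 and 6.62 TPM in replicate 2, which are near each other.

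Med13, which links the module to the rest of the complex, had 4.80 TPM in replicate 1 and 1.95 TPM in replicate 2. Its paralog Med13l had 4.92 TPM in replicate 1 and 10.8 TPM in replicate 2. The log2 ratio of Med13 to Med13l was -0.03 in replicate 1 and -1.99 in replicate 2, a mean of -1.01 ± 1.39 (SD, n = 2). The authors' bounds overlapped in replicate 1, at 3.96 to 6.11 TPM for Med13 and 4.51 to 5.07 TPM for Med13l. They did not in replicate 2, at 1.81 to 2.43 TPM for Med13 and 10.3 to 10.9 TPM for Med13l.

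Ccnc (chromosome 4, 21727701 to 21759922, plus strand), which encodes the cyclin that CDK8 and CDK19 both need, was below 1 TPM in both libraries. It had 0.53 TPM and 35 expected counts in replicate 1, and 0.47 TPM and 64 expected counts in replicate 2. No second gene of the list encodes this cyclin. Exons of Ccnc share 276 bases with the gene Tstd3 on the opposite strand, which had 239 counts in replicate 1 and 455 counts in replicate 2. Whether strand was used in counting is not given in the sources used here, so reads of overlapping genes may not be separated. Of the 33 members, 18 share exon bases with another gene annotated in M21. Among them are the low members Med21, with 197 bases of Tm7sf3, and Med31, with 455 bases of 4930563E22Rik, both on the opposite strand. For Med13l, Med15 and Med29 the only such gene was not among the genes quantified.

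**Figure D2:**
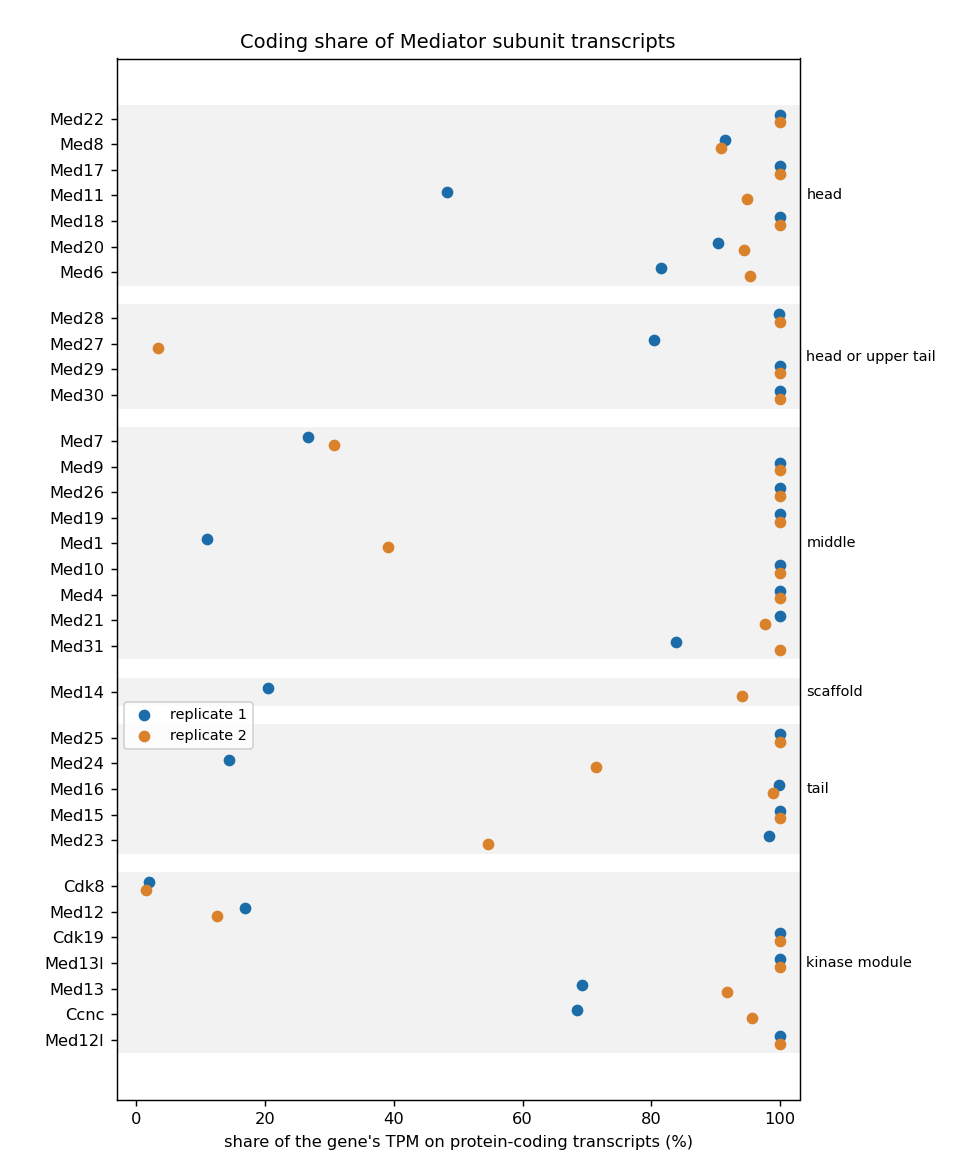
Share of the TPM of each subunit gene that lies on transcripts annotated as protein-coding, in percent, with replicate 1 in blue and replicate 2 in orange. Most genes sit near 100% in both libraries, whereas Cdk8, Med1, Med7 and Med12 lie under 50% in both. Genes that have only coding transcripts lie at 100% by annotation.

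By annotated class, the median member had nearly all of its TPM on coding transcripts. Over all 33 members the median share of TPM on coding transcripts was 99.8% in replicate 1 and 99.9% in replicate 2. Of the 30 members at 1 TPM or more in both libraries, 19 had over 90% in both. The annotation fixes part of this, because Cdk19, Med4, Med9, Med10, Med12l, Med13l, Med15, Med17, Med18, Med22, Med25, Med26, Med29 and Med30 have only coding transcripts. Summed over all members, coding TPM was 1699.6 of 2288.1 TPM in replicate 1 and 1124.2 of 1577.2 TPM in replicate 2. Cdk8, Med1, Med7 and Med12 had under 50% in both libraries, 4 of 30 members, against 15.5% of protein-coding genes at that level. A further 4, Med11, Med14, Med24 and Med27, had under 50% in 1 library. For Med11 this came from the retained-intron transcript Med11-203, with 2.01 TPM in replicate 1 and 0.97 TPM in replicate 2, while its coding TPM was 1.87 in replicate 1 and 18.0 in replicate 2. Because TPM corrects for transcript length, these shares differ from those of expected counts. On expected counts the coding share in replicates 1 and 2 was 44.3% and 87.1% for Med1 and 54.2% and 51.0% for Med7. It was 74.4% and 42.4% for Med12, so of Cdk8, Med1, Med7 and Med12 only Cdk8 stayed under 50% in both libraries. Med24, at 53.2% and 76.7%, was under 50% in neither.

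**Figure D3:**
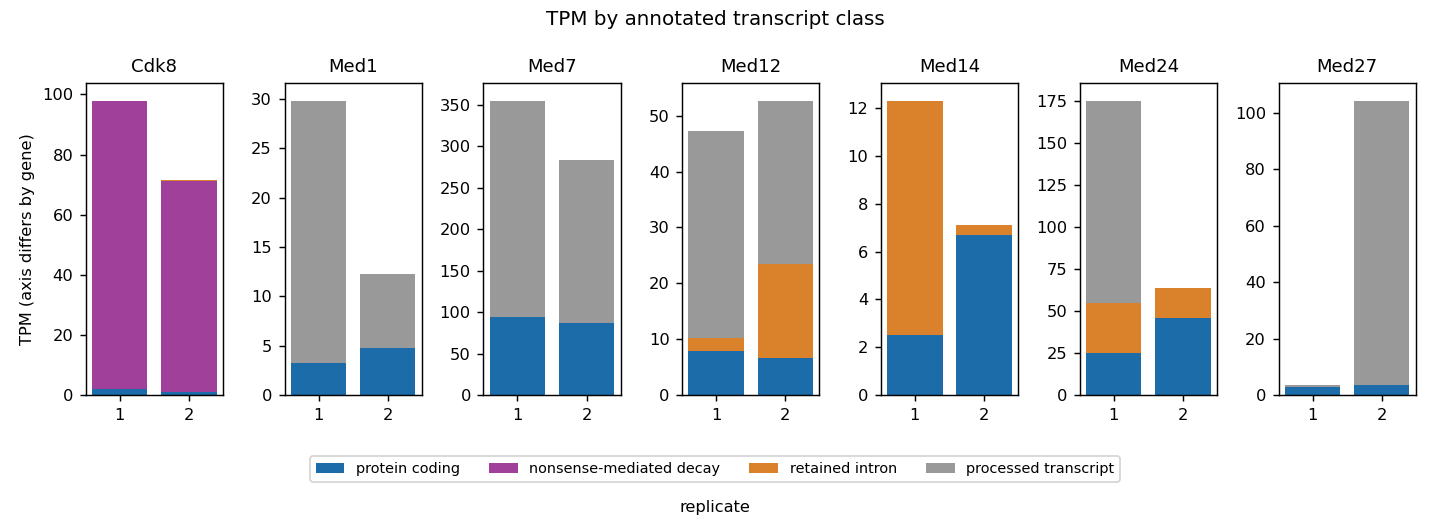
TPM of 7 subunit genes in replicates 1 and 2, stacked by the class that the annotation gives each transcript; the vertical axis differs by gene. Nearly all of each Cdk8 bar is classed as nonsense-mediated decay, and the processed transcript of Med24 is present in replicate 1 (120.2 TPM), that of Med27 in replicate 2 (100.6 TPM).

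The same transcript was usually the most abundant in both libraries. Among the 31 members with at least 20 counts in each library, 24 had the same leading transcript, of which 9 have a single transcript. Of the 22 members with more than 1, 7 had different leading transcripts in the libraries (Med1, Med8, Med11, Med14, Med23, Med24 and Med27), against 27.1% of all such genes. In Med8 both leading transcripts are coding: Med8-209, of 635 bases, had 13.4 TPM in replicate 1 and 8.55 TPM in replicate 2, and Med8-203, of 1134 bases, had 3.90 TPM in replicate 1 and 42.5 TPM in replicate 2. Gene and coding TPM ordered the libraries in opposite ways for 4 of the 30 members, Med1, Med12, Med14 and Med24, against 11.1% of protein-coding genes.

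The libraries were next compared on counts, which do not depend on the division among the transcripts of 1 gene. They can still depend on the division of fragments between genes. Med12 shares 749 exon bases with Gm21986 and Med20 shares 513 with Gm20517 on the same strand, and both members have fractional counts. The part of these overlaps in their counts was not tested. Every gene whose counts summed to 20 or more was tested for a difference between the libraries with an exact binomial test (two-sided, conditional on the gene's total, library sizes corrected by TMM), with Benjamini-Hochberg adjustment over all 10635 genes tested. The test compares these 2 libraries and measures counting noise only. Of 32 members tested, 27 passed an adjusted p of 0.05, with 13 higher in replicate 1 and 14 higher in replicate 2. Of all genes tested 80.7% passed, 37.4% higher in replicate 1 and 43.3% higher in replicate 2, so the members' share is near that of all genes. The 5 that did not pass were Med6, Med21, Med30, Med31 and Ccnc, with adjusted p of 0.353, 0.165, 0.510, 0.0832 and 0.710 in this exact test. Med12l had too few counts to be tested.

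A difference of 2-fold or more in scaled counts was seen for 9 of the 32 members, against 26.8% of all genes. Only Med17 was 2-fold higher in replicate 1 (7.32% of all genes), and 8 members were 2-fold lower in replicate 1 (19.5% of all genes). On total counts in place of TMM the split was 4 higher and 8 lower. The median log2 ratio of all genes is 0.11 on that scaling and -0.06 on TMM. The median size of the log2 ratio was 0.70 over the members and 0.59 over all genes.

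Med27 was furthest apart, with 83 expected counts in replicate 1 and 2469 in replicate 2, 17.7-fold lower in replicate 1 (95% interval for counting error 14.5 to 22.7). The difference lay in Med27-204, as above. Med4 had 126 counts in replicate 1 and 1611 in replicate 2 and was 7.67-fold lower in replicate 1 (6.46 to 9.37). It has a single transcript, so no division among transcripts enters its value. Med11 had 67 counts in replicate 1 and 723 in replicate 2 and was 6.42-fold lower in replicate 1 (5.09 to 8.53). The other members that were 2-fold lower in replicate 1 were Med8, Med20, Med10, Med13l and Med23, at log2 ratios from -2.43 to -1.44.

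In the other direction, Med17 had 2227 counts in replicate 1 and 1711 in replicate 2 and was 2.15-fold higher in replicate 1 (2.01 to 2.29). Med14 had 1636 counts in replicate 1 and 1368 in replicate 2 and was 1.97-fold higher (1.83 to 2.12). Med28 had 1925 counts in replicate 1 and 1680 in replicate 2 and was 1.89-fold higher (1.77 to 2.02). The backbone gene and the central head gene were thus among the members that leaned to replicate 1, while most of the head leaned the other way: of its 7 members, Med8, Med11, Med20 and Med22 passed the test as lower in replicate 1 and Med17 and Med18 as higher. On coding TPM + 1 Med14 turned to a log2 ratio of -1.13, and on TPM + 1 Med22 turned to 0.10. In each module with more than 1 member, calls went in both directions.

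**Figure D4:**
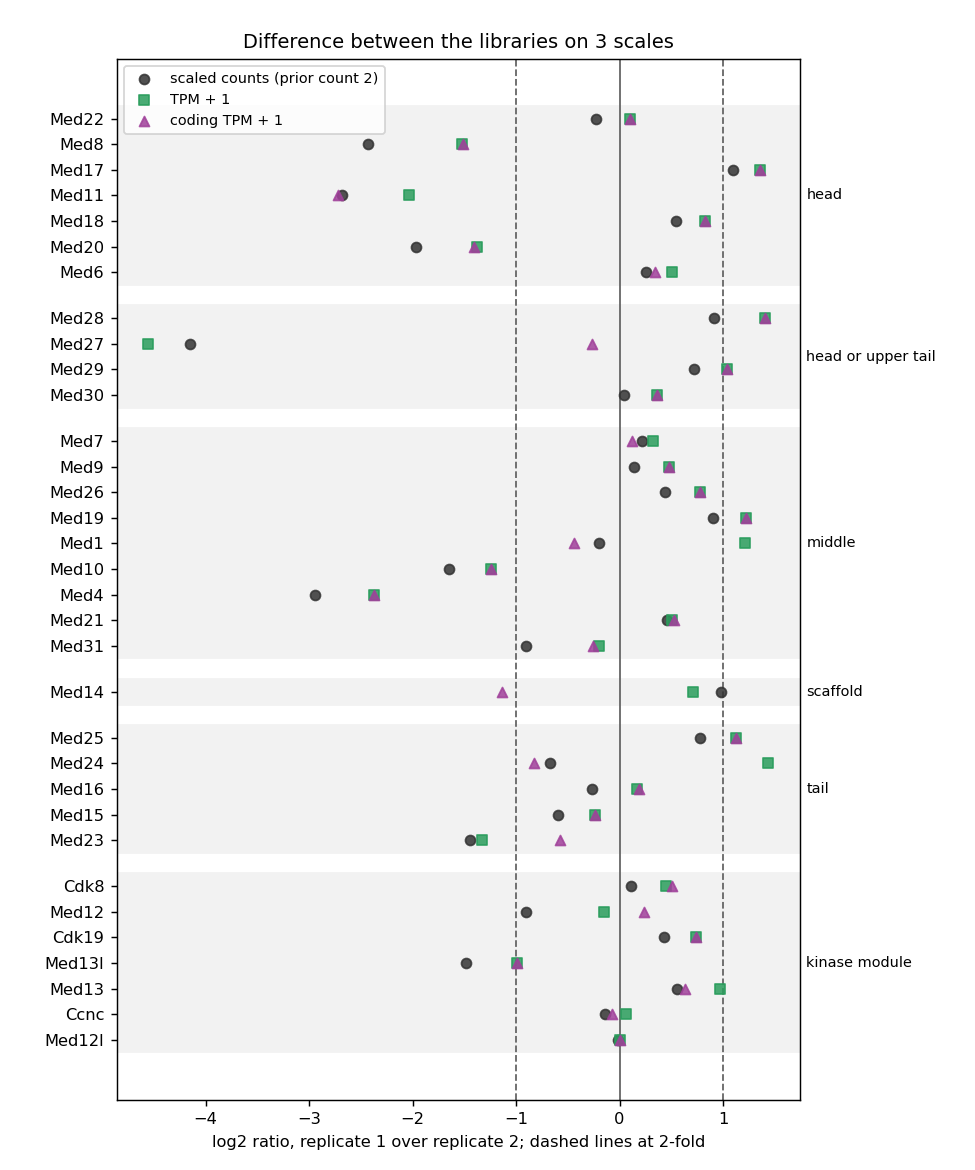
Log2 ratio of replicate 1 over replicate 2 for each subunit gene on scaled counts (circles), TPM + 1 (squares) and coding TPM + 1 (triangles), with dashed lines at 2-fold. Med1 and Med24 lie on opposite sides of 0 by counts and by TPM, as do Med16 and Med22; Med12 and Med14 do so by counts and by coding TPM.

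The direction of several members depends on the scale. Med1, which had 1173 counts in replicate 1 and 2214 in replicate 2, had a log2 ratio of -0.19 on scaled counts (adjusted p = 0.000271 in the exact test) and 1.21 on TPM + 1. Its mean transcript length, as the tables give it, was 1723 bases in replicate 1 and 3594 bases in replicate 2. Med24 had -0.67 on scaled counts and 1.44 on TPM + 1, with a mean length of 1022 bases in replicate 1 and 3174 bases in replicate 2. Med16 and Med22 also passed the test as lower in replicate 1 by counts, at -0.27 and -0.23, and stood at 0.17 and 0.10 on TPM + 1. On TPM + 1 the median log2 ratio over all genes at 1 TPM or more was 0.28, which is above both. On TPM + 1, 14 of the 30 members at 1 TPM or more in both libraries were 2-fold apart, 7 in each direction, against 27.1% of all genes at that level.

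The remaining members that passed the test were under 2-fold apart on scaled counts. Cdk8, Med7 and Med9 had log2 ratios of 0.11, 0.22 and 0.14, past the test but under 1.2-fold. Cdk19, Med13, Med18, Med25, Med26, Med29 and Med19 were higher in replicate 1 at 0.43 to 0.91, and Med12 and Med15 were lower at -0.90 and -0.59, although Med12 stood at 0.23 on coding TPM + 1. Over the 33 members the Spearman correlation of TPM between the libraries was 0.79, and 0.89 on coding TPM. It was 0.88 over the 9269 genes at a mean of 1 TPM or more. These are descriptions across genes of 2 libraries.

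The promoters of the members were looked at for features that the choice by symbol did not use. RefSeq windows of 300 bases on GRCm38.p6, from 250 before to 50 after a start in RefSeq, were found for 28 members in 32 windows. A RefSeq start can differ from the M21 coordinates given above. The Med25 window, for example, lies inside the gene as M21 places it. Their median GC content was 57.8%, against 52.7% over all windows. The SP1 motif GGGCGG was in 62.5% of the members' windows, against 35.7% of all 32851 windows, and the ETS motif CCGGAAG was in 28.1%, against 8.86%. The GATA motif AGATAA was in 12.5%, against 11.2%, and the CCAAT box (CCAAT) in 37.5%, against 37.4%. The TATA box TATAAA was in 9.38%, against 13.6%. Both strands were searched, no motif holds another, and a match is a description and not a bound site. The highest member and the low cyclin gene are shown, with motif matches in capitals.
Med25 (chr7:44892375-44892674, minus strand): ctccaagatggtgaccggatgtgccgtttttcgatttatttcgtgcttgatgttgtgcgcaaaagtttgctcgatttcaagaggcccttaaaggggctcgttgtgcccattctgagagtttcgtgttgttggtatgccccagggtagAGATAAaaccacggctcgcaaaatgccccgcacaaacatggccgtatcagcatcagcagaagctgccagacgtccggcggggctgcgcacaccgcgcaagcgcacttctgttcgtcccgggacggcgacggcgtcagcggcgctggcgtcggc
Ccnc (chr4:21727451-21727750, plus strand): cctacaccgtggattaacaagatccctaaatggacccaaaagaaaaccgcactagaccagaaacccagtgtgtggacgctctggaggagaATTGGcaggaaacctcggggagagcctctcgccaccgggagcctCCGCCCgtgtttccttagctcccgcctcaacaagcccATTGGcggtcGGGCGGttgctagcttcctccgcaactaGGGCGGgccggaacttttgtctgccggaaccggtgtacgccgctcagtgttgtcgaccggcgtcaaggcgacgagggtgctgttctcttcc
The Med25 window holds 1 match, of the GATA motif, and the Ccnc window holds matches of the SP1 motif and the CCAAT box.

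Set beside the machinery it contacts, Mediator lay in the same range. Its median of 21.0 TPM compares with 34.5 TPM over 13 RNA polymerase II subunit genes, 15.7 TPM over 18 general initiation factor genes and 15.6 TPM over 13 genes of TFIID-associated TAFs. On coding TPM the medians were 13.6 for Mediator, 34.4 for the polymerase, 9.45 for the initiation factors and 14.65 for the TAFs. Mediator was thus above the TAFs on gene TPM and below them on coding TPM. The share at 1 TPM or more in both libraries was 30 of 33 for Mediator, 12 of 13 for the polymerase, 17 of 18 for the initiation factors and 13 of 13 for the TAFs. A difference of 2-fold or more in scaled counts was seen for 9 of 32 tested Mediator genes, 5 of 12 polymerase genes, 4 of 18 initiation factor genes and 6 of 13 TAF genes. No test of these lists against each other was made. In these lists, too, levels spread widely: Polr2f and Polr2m led the polymerase at 542 and 228 TPM with Polr2k lowest at 0.35 TPM, Gtf2f1 and Gtf2h1 led the initiation factors at 199.0 and 169.1 TPM with Cdk7 lowest at 1.72 TPM, and Taf10 and Taf11 led the TAFs at 730 and 46.7 TPM with Taf13 lowest at 1.47 TPM (means of 2 libraries). These are gene levels, and the coding TPM of Taf10 was 8.63 in replicate 1 and 2.57 in replicate 2.

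Of 16 genes for factors known to contact Mediator, 11 reached 1 TPM in both libraries. The highest by mean were Gata1, with 190.3 TPM in replicate 1 and 799 TPM in replicate 2, and Ctnnb1, the gene of beta-catenin, which binds MED12, with 282.1 TPM in replicate 1 and 100.8 TPM in replicate 2. The order differs between the libraries: Srebf1 was above Gata1 in replicate 1, and Srebf1, Srebf2 and Trp53 were above Ctnnb1 in replicate 2. These are gene levels, and the coding TPM of Ctnnb1 was 23.0 in replicate 1 and 71.1 in replicate 2. On that scale Ctnnb1 was below Srebf1, Srebf2 and Trp53 in both libraries, and Gata1 stayed highest. Vdr, the vitamin D receptor gene, was listed at 0 in both. Esr1, the endogenous estrogen receptor gene, was listed at 0 in replicate 1 and at 0.07 TPM in replicate 2. Reads of the introduced fusion are not separated from those of Gata1 in these tables.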

How the data were processed

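Per the text deposited with the tables, reads were aligned to mm10 and quantified on GENCODE M4 for each library on its own. Neither aligner nor quantifier is named in the sources used here. The deposited expected counts are unnormalised and were rounded for the count test. The authors' TPM and FPKM values are scaled to effective transcript length, per the file headers, and the authors' percent of a gene's TPM per transcript was used for leading transcripts. Symbols, coordinates and transcript classes came from GENCODE M21, which matched all 147 member transcripts, 66 in the same version. TMM factors came from edgeR 4.0.16, an alternative scaling from DESeq2 1.42.0, and the rest from Python 3.11.15 with scipy 1.17.1. A single library per side leaves edgeR's quasi-likelihood method nothing to estimate the spread from. The exact binomial test was therefore used, with a prior count of 2 in ratios, and was tested on simulated data. Those data held counting noise and set differences only, so they do not show how the test behaves with other spread. Intervals cover counting error only. Named in full were the 3 highest and lowest members, the 3 largest ratios each way, the 3 paralog pairs, Med1 and Med14, and of other lists the 2 highest and the lowest. Members and lists were chosen with earlier results of these data known. Coding TPM was added after seeing the data.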

Additional observations from a re-analysis of the deposited data

How the results depend on the processing

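The median level of the members was 38.6 TPM over those at 1 TPM or more and 13.6 on coding TPM, and ranged from 19.0 to 25.1 with 1 library left out. On coding TPM the medians of the middle, backbone, tail and kinase modules were 17.5, 4.60, 47.2 and 2.55; leaving out a library gave 25.1 to 29.8 for the middle. The log2 ratio of Cdk8 to Cdk19 was 1.69 on expected counts and -2.54 on coding TPM, the reverse of gene TPM. That of Med12 to Med12l was 8.70 with a pseudocount of 0.1, 5.41 on FPKM, 8.50 on expected counts and 3.02 on coding TPM. At 1.5-fold 18 members were apart, and on TPM 14. The coding share was 99.2% on posterior means. Against scaled counts the sign turned on TPM for Med1 (1.21), Med24 (1.44), Med16 (0.17) and Med22 (0.10), and on coding TPM for Med12 (0.23), Med14 (-1.13), Med16 (0.19) and Med22 (0.10). On total counts Med1 and Med22 no longer passed the test and Med30 did. The cause was not tested. The other 56 comparisons of summary values with an alternative stayed within the spread or within 1.5 times. No paired analysis was possible because the study has 1 group. Ccnc, Med6, Med21, Med31 and Med12l rest on under 100 counts in each library. Med6 had 54 counts in replicate 1 and 74 in replicate 2, and Med21 had 38 and 45.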
